A study of Homo sapiens with 8 samples.

Results

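Interferon-stimulated genes are the genes that cells switch on when interferons reach them. A list of 49 such human genes, matched by gene symbol, was followed here in 2 breast epithelial cell lines with and without HOTAIR, a long non-coding RNA transcribed from the HOXC cluster. Of the 49 listed genes, 43 were in the table of 13771 genes and 6 (MX2, XAF1, RSAD2, CMPK2, HERC5 and RTP4) were not in it.

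The study asked what over-expressed HOTAIR does to gene expression in MCF10A, an immortal but non-tumorigenic human breast epithelial line, and in DCIS.COM, a line of the same lineage that forms lesions resembling ductal carcinoma in situ in mice. Each line carried a lentiviral pCDH vector, either empty (pCDH-empty) or with HOTAIR (pCDH-HOTAIR), and all 4 groups had been selected with puromycin. RNA-seq was done on 2 libraries per group, 8 in all. MCF10A was grown in medium with horse serum, EGF, hydrocortisone, insulin and cholera toxin, whereas DCIS.COM was grown with horse serum and without these additions, so cell line and medium cannot be told apart. The labels do not say whether the 2 libraries of a group came from separate cultures, so the p-values measure only the spread between these libraries, which may be technical.

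Type I interferons bind the receptor pair IFNAR1 and IFNAR2, which signal through the kinases JAK1 and TYK2. STAT2 and IRF9 then act in the complex ISGF3, which binds a promoter sequence called the interferon-stimulated response element (ISRE). Its target genes encode sensors of viral RNA, enzymes and binding proteins that block viral replication, membrane proteins that hold virus back, and regulators that tune the response. Many of them also keep a low level of expression in epithelial cells that have met no virus.

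The ISRE shows in the promoters of many of the genes followed here, and a few stretches are printed because they are the shared sequence feature of the group. The letters searched were GAAANNGAAA on both strands, where N is any base, in windows from 250 bases before to 50 bases after the RefSeq transcription start (build GRCh38.p14). Matches that overlap each other were each counted. Of the 49 genes, 41 were matched to a window, and 26 of the 41 (63.4%) held the letters, compared with 3.57% of 35116 promoter windows. A second motif, TTCNNNGAA, the palindromic GAS element of interferon gamma target genes, was searched separately and may overlap the first. It was in 11 of the 41 windows (26.8%) and in 7.66% of all windows. Not matched were IFIT2, IFITM2, MX2, OAS2, OASL, DHX58, IRF7 and USP18. A match is a description of the letters and not a tested binding site. The stretches below run 5′ to 3′ on the strand of the gene, with each match to the ISRE letters, or to their reverse complement, in capitals.
IFIT1 (chr10:89392495-89392541, plus strand): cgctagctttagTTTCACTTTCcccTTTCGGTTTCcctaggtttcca
IFIT3 (chr10:89327863-89327896, plus strand): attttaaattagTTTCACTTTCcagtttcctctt
IFI6 (chr1:27672264-27672319, minus strand): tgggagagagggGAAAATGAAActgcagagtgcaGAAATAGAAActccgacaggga
IFI27 (chr14:94110616-94110662, plus strand): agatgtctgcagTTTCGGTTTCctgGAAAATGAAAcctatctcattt
ISG15 (chr1:1013372-1013411, plus strand): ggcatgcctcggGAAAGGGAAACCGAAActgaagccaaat
DDX60 (chr4:168318819-168318852, minus strand): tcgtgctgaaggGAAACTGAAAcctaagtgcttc
EPSTI1 (chr13:42992270-42992303, minus strand): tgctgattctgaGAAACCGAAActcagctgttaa
BST2 (chr19:17405733-17405772, minus strand): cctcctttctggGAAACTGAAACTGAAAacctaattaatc
ISG20 (chr15:88638935-88638968, plus strand): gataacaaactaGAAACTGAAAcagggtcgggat
The first 7 stretches belong to genes that were lower in DCIS.COM than in MCF10A with the empty vector, and the last 2, of BST2 and ISG20, to genes that were higher there, so the letters stood before genes of both directions.

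The libraries were deep enough for nearly all of these genes. Whole reads recovered from the deposited values summed to between 19306864 and 34884841 per library, least in the 2 MCF10A pCDH-HOTAIR libraries. HOTAIR had log2 CPM (log2 of reads scaled to library size) of 0.60 and 0.66 in MCF10A pCDH-empty against 7.90 and 7.92 in pCDH-HOTAIR, and 2.01 and 2.40 against 7.66 and 7.57 in DCIS.COM. The groups did not overlap in either line, as the labels give it. The 8 epithelial markers checked were all in the table, while PTPRC, CD3E, COL3A1, PDGFRB, DCN, CDH5 and VWF, markers of leukocytes, fibroblasts and endothelium, were not in it. CD14 and CD68, 2 of the 5 leukocyte markers, were in the table with summed CPM of 41.4 to 47.1 in MCF10A and 5.63 to 6.55 in DCIS.COM. COL1A2, 1 of the 4 fibroblast markers, had 1.51 to 3.72 and 0 to 0.0333, and PECAM1, 1 of the 3 endothelial markers, had 1.70 to 2.69 and 10.1 to 13.3. Their levels thus differed between the lines, and their part in the differences between the lines was not tested. The 2 DCIS.COM pCDH-empty libraries differed from each other far more than other replicate pairs (chi-square per degree of freedom of 69.7, against 4.01 to 9.58 in the other 3 pairs). In the first of them, RN7SL1 and RN7SL2, RNAs of the signal recognition particle, took 18.9% of the reads, and 11.1% to 15% in the other 7 libraries. The main counts that rest on this pair are therefore given also without each of its libraries, while values of single genes and counts by role are given with both.

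Levels between genes are compared per kilobase of the gene's canonical transcript (RPKM, computed here from the recovered reads). In MCF10A pCDH-empty the highest were IFI27, a small mitochondrial protein (276 ± 9.53 RPKM, SD, n = 2), IFI6, of the same family (133 ± 2.35), and IFITM3, a membrane protein that blocks virus entry (118 ± 1.29). In DCIS.COM pCDH-empty the highest were LGALS3BP, a secreted galectin-binding glycoprotein (215 ± 17.6), BST2, or tetherin, which holds budding virus at the cell surface (104 ± 21.4), and IFITM3 (94 ± 11.7). IFITM3 was thus among the first 3 in both lines, whereas the order of the rest changed. The median RPKM over the 43 genes was 9.99 in both empty-vector libraries of MCF10A, and 4.87 and 4.78 in those of DCIS.COM. Reads on IFITM1, IFITM2 and IFITM3 are uncertain, since these neighbours are near-identical and the rule for shared reads is not given in the sources used here. The same holds for 19 members that overlap another annotated gene, among them PARP9 and DTX3L, which overlap on opposite strands. In these bulk samples, fewer cells that express a gene and less RNA per cell cannot be told apart.

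**Figure D1:**
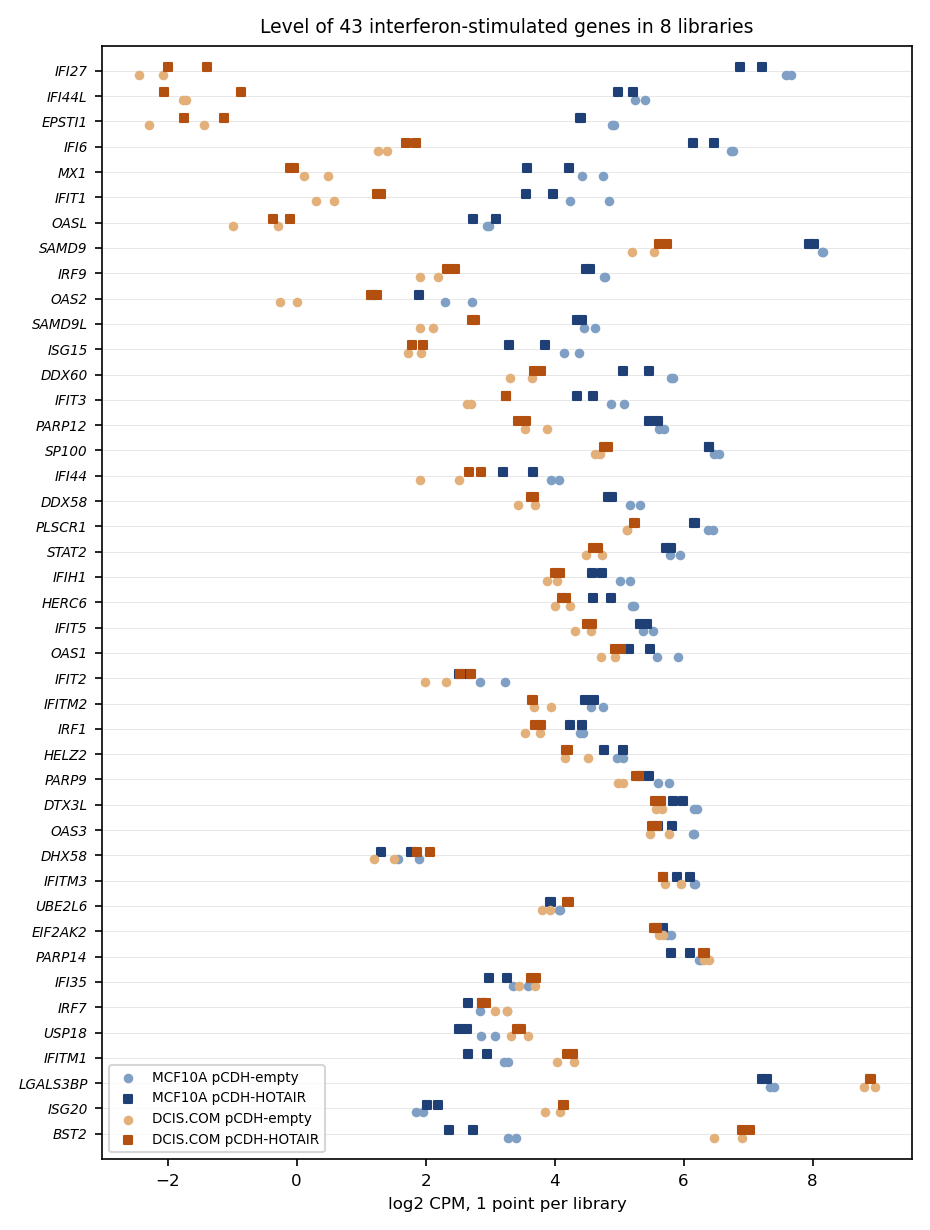
Each row is one of the 43 interferon-stimulated genes in the table, ordered by the log2 fold change of DCIS.COM over MCF10A with the empty vector, and each point is the log2 CPM of a library (horizontal axis), with circles for pCDH-empty and squares for pCDH-HOTAIR. IFI27, at the top, lies between 6.88 and 7.66 in MCF10A and between -2.44 and -1.39 in DCIS.COM, and BST2, at the bottom, shows the opposite order.

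HOTAIR over the empty vector in MCF10A was the first comparison. Nearly all members had a lower mean with HOTAIR, but none was called. Of the 43 genes, 42 had a lower mean and ISG20 (a nuclease that degrades RNA) a higher one, with a median log2 fold change of -0.30, where the median over all 13771 genes was -0.0055. For a call, limma had to give an adjusted p (Benjamini-Hochberg over all genes) under 0.05, with a change of 1.5-fold or more. This rule called 3 of all genes (0.0218%). At an unadjusted p under 0.05, 23 members were lower and 0 higher, where 2.88% of all genes were lower by that rule. Both HOTAIR libraries lay below both empty-vector libraries in 34 of the 43, and this held for 24.8% of all genes.

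The smallest p in MCF10A was that of BST2 (chr19:17513748-17516439, GRCh37). Its log2 CPM was 3.27 and 3.41 in the empty-vector libraries and 2.74 and 2.36 in the HOTAIR libraries. The groups did not overlap, and the log2 fold change was -0.79 ± 0.16 (SE, unadjusted p = 0.00142, adjusted p = 0.247 by limma). IFIT3, which binds viral RNA together with IFIT1, had 5.07 and 4.87 with the empty vector and 4.59 and 4.35 with HOTAIR. This was a difference of -0.50 ± 0.12 (adjusted p = 0.311 by limma). IFIH1, the RNA sensor MDA5, had 5.16 and 5.02 against 4.74 and 4.57, a difference of -0.44 ± 0.10 with the same adjusted p. For both genes the HOTAIR libraries lay below both controls. Without DCIS.COM pCDH-empty 1 or 2, whose pair enters the shared estimate of the spread, BST2 was called at an adjusted p of 0.022 and 0.0226 in limma, with 11 of all genes (0.0799%) called lower in each of these fits. Over all alternatives its adjusted p ran from 0.022 to 0.787.

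By role, the IFIT proteins, which bind the ends of foreign RNA, had lower means in 4 of 4 genes, 3 of them at an unadjusted p under 0.05. IFIT1 had the lowest, a log2 fold change of -0.77, and IFIT5 the one nearest to 0, at -0.06. The oligoadenylate synthetases, which make the signal that activates RNase L, were lower in 4 of 4, from -0.97 for OAS2 to -0.06 for OASL. MX1, a GTPase that traps viral nucleocapsids, stood at -0.69. Its log2 CPM was 4.75 and 4.43 with the empty vector and 4.23 and 3.57 with HOTAIR, without overlap. ISG15, a ubiquitin-like modifier, had 4.38 and 4.15 against 3.85 and 3.30, a difference of -0.70. HOTAIR libraries were the lower ones here too, and its protease USP18, its conjugating enzyme UBE2L6 and the ligase HERC6 at -0.38, -0.15 and -0.48. The 5 RNA sensors, PKR (EIF2AK2) included, ran from -0.56 for DDX60 to -0.13 for EIF2AK2. The transcription factors IRF1, STAT2, IRF9 and IRF7 stood at -0.09, -0.10, -0.25 and -0.29, and 0 of 4 had an unadjusted p under 0.05. PARP9, PARP14 and DTX3L, which act together in ADP-ribosylation and ubiquitination, stood at -0.30, -0.30 and -0.27. Among the other effectors 13 of 14 had a lower mean.

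The lower means in MCF10A were not spread evenly over the libraries. MCF10A pCDH-HOTAIR 2 was the lowest of the 4 MCF10A libraries for 40 of the 43 genes, and pCDH-empty 1 the highest for 27. The median deviation of the members from their own mean over the line was 0.23 and 0.10 log2 units in pCDH-empty 1 and 2 and -0.06 and -0.23 in pCDH-HOTAIR 1 and 2, while the medians over all genes lay within 0.0036 of 0. RN7SL1 and RN7SL2 took 15% and 13.7% of the reads in the empty-vector libraries and 12.5% and 11.1% in the HOTAIR libraries, in the same order as the members. Library totals were also smaller with HOTAIR (19306864 and 19675113 reads against 31598168 and 27005146), and the part of both in the result was not tested. Without pCDH-HOTAIR 2, 38 members had a lower mean and the median was -0.22, where it was -0.0035 over all genes. Without pCDH-empty 1, 41 had a lower mean and the medians were -0.25 and -0.0063.

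HOTAIR over the empty vector in DCIS.COM gave the opposite direction for most members, again with no call. Of the 43 genes, 32 had a higher mean with HOTAIR and 11 a lower one, and the median log2 fold change was 0.12, where it was 0.01 over all genes. The rule called 12 of all genes (0.0871%) and 0 members. At an unadjusted p under 0.05, 13 members were higher and 0 lower, and 9.08% of all genes were higher by that rule. Both HOTAIR libraries lay above both empty-vector libraries in 19 members, and in 24.7% of all genes. In 5 members, IFITM2, IFITM3, MX1, IRF7 and EIF2AK2, both HOTAIR libraries lay below both controls, and 24.5% of all genes did so.

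SAMD9L, an antiviral protein that restrains growth (chr7:92759369-92777698, GRCh37), had the smallest p. Its log2 CPM was 1.91 and 2.11 with the empty vector and 2.72 and 2.77 with HOTAIR. The groups did not overlap, and the log2 fold change was 0.73 ± 0.11 (unadjusted p = 0.000224, adjusted p = 0.0996 by limma). OAS2 (chr12:113416200-113449528) had -0.26 and 0.01 against 1.25 and 1.15, from 23 and 25 reads against 82 and 72. This was the largest difference of any member in this line, 1.32 ± 0.26 (adjusted p = 0.138 by limma), again without overlap. IFIT3 had 2.64 and 2.71 against 3.24 and 3.24, a difference of 0.57 ± 0.12 (adjusted p = 0.141 by limma). OAS2 and IFIT3 were thus both lower with HOTAIR in MCF10A and higher with it in DCIS.COM. SAMD9L did not share this pattern as clearly, with 4.63 and 4.46 against 4.42 and 4.34 in MCF10A, a difference of -0.16 ± 0.11.

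**Figure D2:**
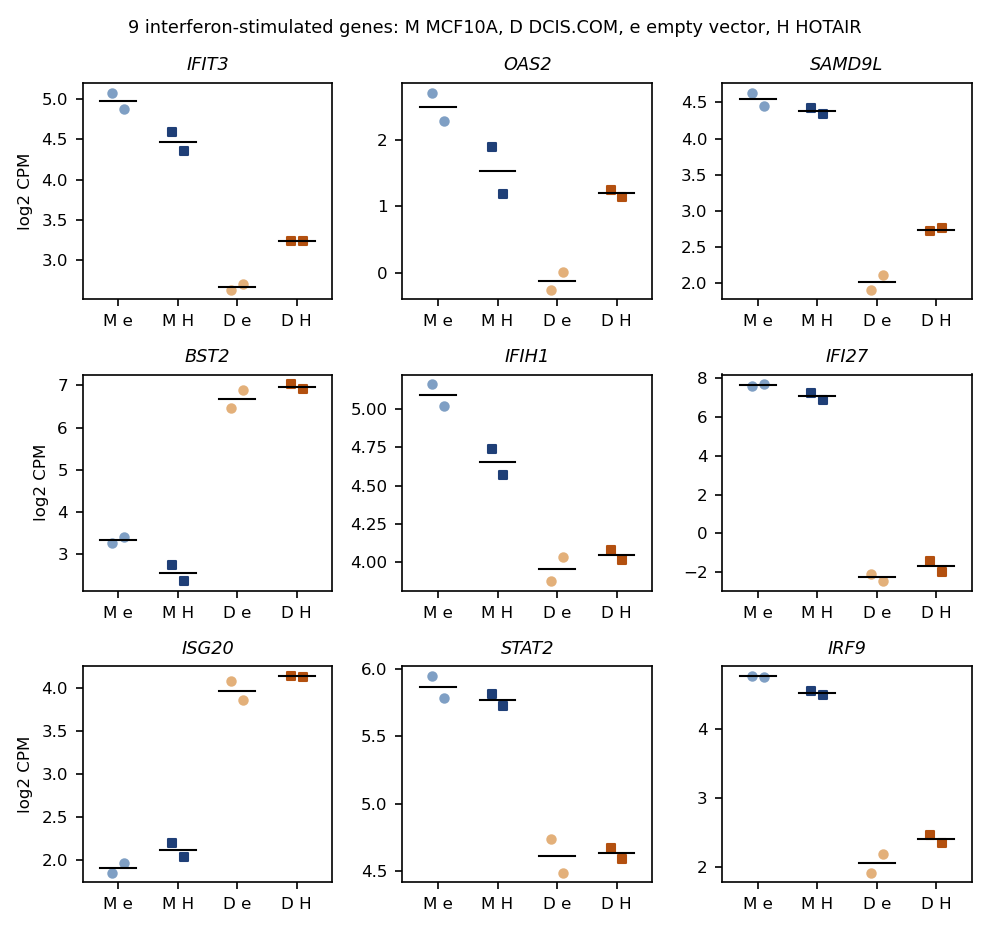
Points are the log2 CPM of single libraries (vertical axis, a range of its own in each panel) for 9 members in the 4 groups (M, MCF10A; D, DCIS.COM; e, empty vector; H, HOTAIR), and black lines are group means. In the OAS2 panel HOTAIR libraries lie below the controls in MCF10A, at 1.90 and 1.18, and above them in DCIS.COM, at 1.25 and 1.15.

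By role, IFIT1, IFIT2 and IFIT3 stood at log2 fold changes of 0.83, 0.46 and 0.57, each at an unadjusted p under 0.05, and IFIT5 at 0.10. Among the oligoadenylate synthetases OAS1, OAS3 and OASL stood at 0.16, -0.07 and 0.41, so OAS2 stood apart from its relatives. Of the RNA sensors, DHX58 (LGP2, a regulator of the other sensors) had 1.2 and 1.5 with the empty vector and 2.07 and 1.87 with HOTAIR, a difference of 0.62, while DDX58 (RIG-I) and IFIH1 both stood at 0.09. IRF9, the DNA-binding part of ISGF3, had 1.91 and 2.19 against 2.45 and 2.34, a difference of 0.35 ± 0.12. Its partner STAT2 stood at 0.02. IFI6 stood at 0.44, IFI27 at 0.56 and IFI44 at 0.55, although IFI27 had 3 to 11 reads in every DCIS.COM library. ISG15 stood at 0.05 and MX1 at -0.37, so the differences were not alike over the list. Among the other effectors 13 of 14 had a higher mean, HELZ2 (a co-activator helicase) being the exception at -0.15.

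These values depend on the uneven pair of DCIS.COM controls. Without pCDH-empty 2, 9 members were called higher (IFIT1, IFIT2, IFIT3, IFI44, OAS2, OASL, DHX58, SAMD9L and EPSTI1), 27 had a higher mean and 19 were higher at an unadjusted p under 0.05. In that fit 8.1% of all genes were called higher and 26% were higher at an unadjusted p under 0.05. The remaining control was then the library with 18.9% of its reads on RN7SL1 and RN7SL2, and its spread was assumed to be that of the other groups. Without pCDH-empty 1, SAMD9L was the only member called (log2 fold change 0.63, adjusted p = 0.0371 by limma, with a range of 0.000682 to 0.69 over all alternatives), 31 had a higher mean and 9 were higher at an unadjusted p under 0.05. Of all genes, 0.37% were then called higher and 8.09% were higher at an unadjusted p under 0.05.

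The difference of the HOTAIR effect between the lines was tested directly, as an interaction term. It was above 0, meaning higher in DCIS.COM than in MCF10A, for 39 of the 43 members, with a median of 0.48 on the log2 scale, and 0 members were called. Of all genes, 6 (0.0436%) were called at an adjusted p under 0.05, the only threshold here. At an unadjusted p under 0.05, 24 members and 5.21% of all genes were higher in DCIS.COM by this measure, and 0 members were lower. The smallest p was that of IFIT3, with a difference of 1.07 ± 0.16 (adjusted p = 0.145 by limma), followed by OAS2 with 2.29 ± 0.37 (adjusted p = 0.152 by limma). Without pCDH-empty 2 of DCIS.COM, 21 members were called, all higher in DCIS.COM, as were 2516 of all genes (18.3%). Without pCDH-empty 1 of DCIS.COM, IFIT3 was the only member called, and 53 of all genes (0.385%) were called higher.

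Taken gene by gene, 31 of the 43 members (72.1%) had a lower mean with HOTAIR in MCF10A and a higher one in DCIS.COM, and 27.4% of all genes did. In 17 members the libraries did not overlap in either line, in these directions, which was so for 6.08% of all genes. Without DCIS.COM pCDH-empty 1 these counts were 30 and 22 members, and 23.3% and 8.33% of all genes. Without pCDH-empty 2 they were 26 and 22 members, and 28% and 13.1% of all genes, and with a single control an overlap is less easily reached. IFI27, IFI44L and EPSTI1 reached a CPM above 0.5 in MCF10A only, and with both controls the other 40 members gave counts of 28 and 16. The 17 were IFIT1, IFIT2, IFIT3, IFI6, IFI27, IFI44, OAS1, OAS2, DDX60, IRF9, PARP9, SAMD9, SAMD9L, BST2, SP100, UBE2L6 and PLSCR1. IFIT1 had 4.84 and 4.24 with the empty vector against 3.97 and 3.56 with HOTAIR in MCF10A, and 0.31 and 0.57 against 1.3 and 1.24 in DCIS.COM. IFI6 had 6.77 and 6.73 against 6.47 and 6.14 in MCF10A, and 1.26 and 1.40 against 1.70 and 1.86 in DCIS.COM. Both were thus lower with HOTAIR where their level was high and higher with it where their level was low. UBE2L6, not called between the lines with the empty vector, had 4.07 and 4.09 against 3.93 and 3.94 in MCF10A, and 3.93 and 3.80 against 4.19 and 4.22 in DCIS.COM. BST2, at a higher level in DCIS.COM, had 6.48 and 6.90 there with the empty vector and 7.03 and 6.91 with HOTAIR. This was a difference of 0.28 ± 0.16 (adjusted p = 0.372 by limma). It ran from 0.07 to 0.49 when a library was left out, and the nearest libraries, at 6.90 and 6.91, were barely apart. With the empty vector, most of the 17 were called higher in MCF10A. The same empty-vector libraries served to pick the 17, and that choice favours this direction. The share among all genes picked in this way is not given here, so this is not read as a trait of the 17. BST2 was the only one called higher in DCIS.COM, and UBE2L6 the only one not called between the lines. The 17 genes came from 7 of the 9 roles, the exceptions being the MX and IFITM proteins. Lower means in both lines were seen in 11 members, among them MX1, IRF7, IFITM2, IFITM3 and EIF2AK2, and a higher mean in both in ISG20.

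**Figure D3:**
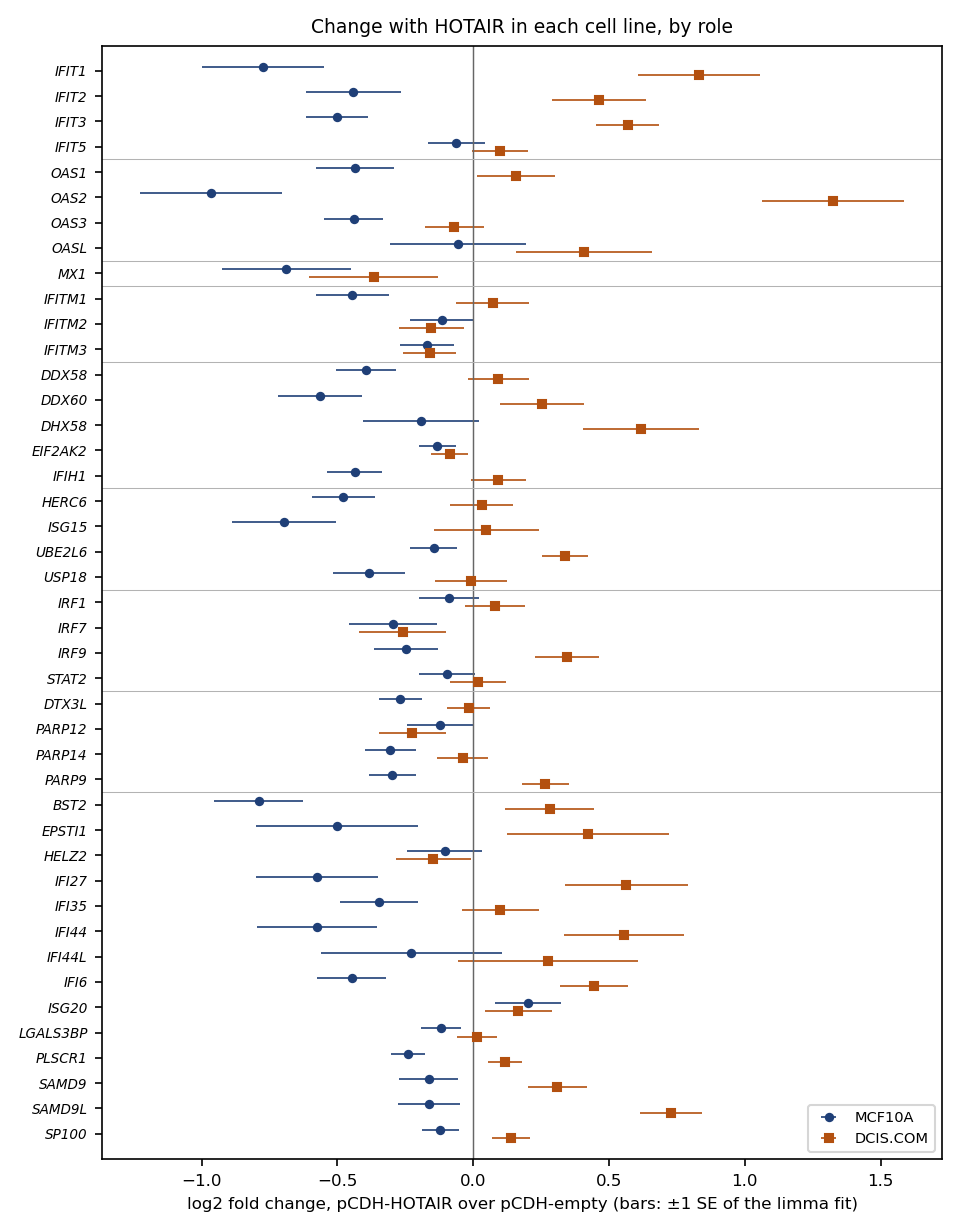
Log2 fold change of pCDH-HOTAIR over pCDH-empty (horizontal axis) for each of the 43 genes in MCF10A (circles) and DCIS.COM (squares), with bars of 1 SE of the limma fit and lines between roles. Circles lie left of 0 for all genes but ISG20, and squares lie right of 0 for 32 genes, farthest for OAS2 at 1.32.

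DCIS.COM over MCF10A with the empty vector gave differences far beyond the spread between libraries. Of the 43 members, 29 were called lower in DCIS.COM, 4 higher, and 10 were not called. An adjusted p under 0.05 by limma was reached by 37 members, and by 9394 of all 13771 genes. Among the 37 members, DTX3L, OAS3, USP18 and IFITM3 changed by less than 1.5-fold and so were not called. Of all genes, 23.8% were called lower and 22.5% higher. The median over the members was -1.10 on the log2 scale, and -0.0001 over all genes. For 3 members, IFI27, IFI44L and EPSTI1, only the MCF10A libraries reached the level that put a gene in the table (a CPM above 0.5 in 2 libraries), so these had to differ. Of the 40 members that passed through both lines, 26 were called lower and 4 higher. Without DCIS.COM pCDH-empty 1, 31 of the 43 were called lower and 4 higher (22.5% and 22% of all genes), and without pCDH-empty 2, 28 and 5 (26.4% and 24%).

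IFI27 (chr14:94571182-94583032, GRCh37) had 6002 and 5379 reads in MCF10A and 5 and 3 in DCIS.COM. The log2 fold change was -9.88, and at so few reads its size depends on the prior count in the values. IFI44L had 1322 and 1008 reads against 7 and 6, and EPSTI1, a stromal interaction protein, had 924 and 804 against 4 and 8. Both were near the limit of detection in DCIS.COM, at -7.06 and -6.77. IFI6 had log2 CPM of 6.77 and 6.73 in MCF10A and 1.26 and 1.40 in DCIS.COM, a difference of -5.42 ± 0.13. MX1 had 4.75 and 4.43 against 0.49 and 0.11, and IFIT1 had 4.84 and 4.24 against 0.31 and 0.57. These were differences of -4.29 and -4.10, with no overlap between the lines.

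Of the 4 members that were higher in DCIS.COM, BST2 and IFITM1 are membrane proteins, LGALS3BP is secreted and ISG20 is a nuclease. BST2 had 3.27 and 3.41 in MCF10A and 6.48 and 6.90 in DCIS.COM, a difference of 3.35 ± 0.16 (adjusted p = 7.11e-07 by limma). ISG20 had 1.85 and 1.97 against 4.08 and 3.86, LGALS3BP 7.34 and 7.41 against 8.97 and 8.80, and IFITM1 3.27 and 3.21 against 4.30 and 4.04. The lines did not overlap in any of these, and the differences were 2.06, 1.51 and 0.93. IFITM1 is the neighbour of IFITM2 and IFITM3, of which IFITM2 fell by 0.84 and IFITM3 stood at -0.33, under the fold threshold. The called members that fell least were PARP9, HELZ2, IRF1 and IFITM2, at -0.67, -0.68, -0.76 and -0.84.

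By role, the 4 IFIT genes all fell, from -4.10 for IFIT1 to -0.89 for IFIT2. Of the oligoadenylate synthetases OASL fell by 3.61, OAS2 by 2.63 and OAS1 by 0.93, whereas OAS3 stood at -0.53. DDX60, DDX58 and IFIH1 fell by 2.34, 1.69 and 1.14 on the log2 scale, whereas DHX58 and EIF2AK2 stood at -0.38 and -0.12 and did not pass the test. Of the transcription factors, STAT2, IRF9 and IRF1 fell. STAT2 had 5.95 and 5.79 against 4.74 and 4.49, a difference of -1.25 ± 0.10. IRF9 had 4.78 and 4.76 against 1.91 and 2.19, a difference of -2.72 ± 0.12. IRF7, which drives interferon genes, stood at 0.11 and did not pass the test. ISG15 and HERC6 fell by 2.44 and 1.10, whereas UBE2L6 and USP18 stood at -0.21 and 0.49.

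DCIS.COM over MCF10A with pCDH-HOTAIR rested on 4 other libraries and gave 25 members lower and 5 higher, where 21.7% of all genes were called lower and 22% higher. Of the members, 25 were called lower with both vectors, 4 higher with both and 0 in opposite directions. Of all genes, 19.6% were called lower with both, 18.8% higher with both and 1 (0.00726%) in opposite directions. IFIT2, OAS1, OAS2 and PARP9 were called lower with the empty vector only, and USP18 was called higher with HOTAIR only. The median was -0.67, and the gap between the lines was smaller with HOTAIR in 31 of the 43 members and in 7541 of 13771 genes. Without DCIS.COM pCDH-empty 1 or 2 this held for 34 and 31 members and for 7248 and 7961 genes. The test of the change in the gap is the interaction above, which called 0 members. OAS2 stood at -2.63 ± 0.26 with the empty vector and -0.34 ± 0.26 with HOTAIR, since its log2 CPM of 1.90 and 1.18 in MCF10A and 1.25 and 1.15 in DCIS.COM overlapped. BST2, already higher in DCIS.COM, stood at 4.42 ± 0.16 with HOTAIR, against 3.35 ± 0.16 with the empty vector.

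**Figure D4:**
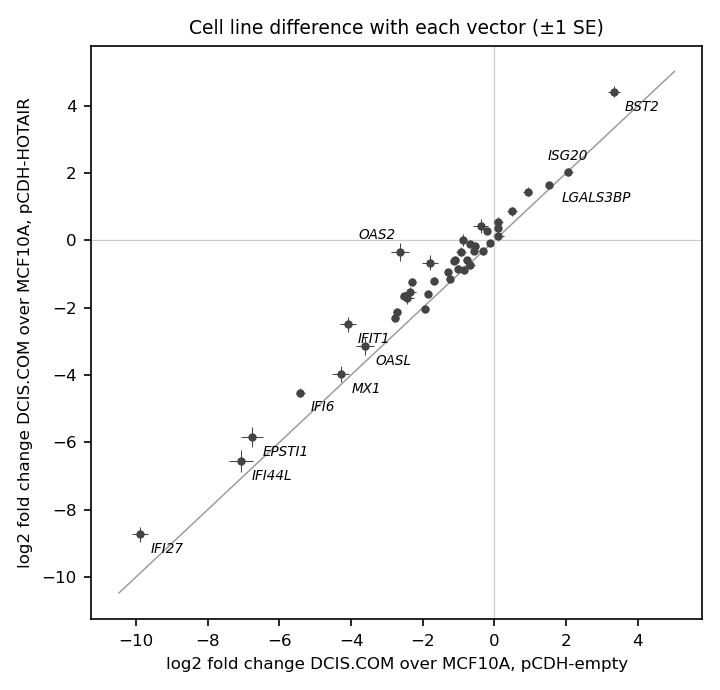
Log2 fold change of DCIS.COM over MCF10A with the empty vector (horizontal axis) and with HOTAIR (vertical axis) for the 43 genes, with bars of 1 SE and a diagonal of equal values. Most points lie below 0 on both axes and above the diagonal, OAS2 farthest from it at -2.63 and -0.34, while BST2 lies at 3.35 and 4.42.

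Of the 41 genes with a promoter window, 36 were in the expression table, 24 with the ISRE letters and 12 without. The median log2 fold change of DCIS.COM over MCF10A with the empty vector was -1.54 with the letters and -1.01 without. The called genes were 15 lower and 4 higher with the letters and 10 lower and 0 higher without. Of all genes, 23.8% were called lower and 22.5% higher. IFI27, IFI44L and EPSTI1, which had to differ by the filter and were lower in DCIS.COM, are all in the set with the letters. Leaving out DCIS.COM pCDH-empty 1 or 2 gave medians of -1.39 and -1.53 with the letters and -1.01 and -0.969 without. With HOTAIR in MCF10A the medians were -0.44 and -0.20, and in DCIS.COM 0.11 and 0.12. The 2 sets were not tested against each other.

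Other genes of the pathway were followed on a list of 77, of which 60 were in the table. None of the 9 interferon genes on it (IFNA1, IFNA2, IFNB1, IFNE, IFNK, IFNG, IFNL1, IFNL2 and IFNL3) was in the table. In both HOTAIR comparisons 0 of the 60 were called, and the medians were -0.06 in MCF10A and 0.09 in DCIS.COM. With the empty vector 28 were called lower in DCIS.COM and 4 higher, where 23.8% and 22.5% of all genes were. The median of this difference was -0.52, and leaving out DCIS.COM pCDH-empty 1 or 2 gave -0.39 and -0.51. IFNAR1 had 6.09 and 6.28 in MCF10A and 5.19 and 5.57 in DCIS.COM, a difference of -0.80 ± 0.12 that passed the test. IFNAR2 had 2.92 and 3.06 against 3.20 and 3.28, a difference of 0.25 ± 0.12 that did not. HOTAIR made no difference that passed the test in either receptor, at -0.03 and 0.17 in MCF10A and 0.28 and 0.21 in DCIS.COM. A further 31 interferon-induced genes, chosen apart from the members, had 27 in the table. Of these, 22 had a lower mean with HOTAIR in MCF10A (median -0.08) and 12 a higher one in DCIS.COM (median -0.02). Over all genes, 51.8% had a lower mean with HOTAIR in MCF10A and 52.0% a higher one in DCIS.COM.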

How the data were processed

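Per the sources of the study, ScriptSeq libraries were read as paired ends, aligned to hg19 with Rsubread, and counted with featureCounts on the UCSC gene set. The authors deposited normalized log2 CPM values for 13771 genes, each with a CPM above 0.5 in at least 2 libraries, and 343 without a symbol. The strand setting and the prior count are not given in the sources used here. Whole reads were recovered here from the steps of the values (100% whole within 0.01 reads, shared prior 0.0717 CPM), with totals of 19306864 to 34884841 per library, so counting error is small except for genes with few reads. No per-sample column was left unused.

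The log2 CPM were tested with limma 3.58.1 in R 4.3.3 (4 group means over 8 libraries, eBayes with trend, Benjamini-Hochberg over all genes). Calls needed an adjusted p under 0.05 and, except for the interaction, a 1.5-fold change or more. The test was also run on simulated data. The members, lists and tests were chosen with earlier results of these data known. Named with values by rule were the 3 smallest p-values in each HOTAIR comparison, called members in the HOTAIR comparisons, the 8 largest and 6 lowest called differences between the lines, the 3 highest levels per length in each line with the empty vector, genes absent from the table, STAT2, IRF9, HOTAIR, IFNAR1 and IFNAR2. Other genes were named by role after their values were seen.

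Alternatives were log2(CPM + 1), median centring, quantile normalization, a mean CPM of at least 2 (12222 genes), no trend, a replicate block, separate fits, limma-voom on the recovered reads, loess correction on GC content or length (span 0.4), other fold thresholds and each library left out. GC content, gene positions and canonical transcript lengths came from GENCODE on GRCh37 (96.3% of genes), and promoters from RefSeq (GRCh38.p14). Length correction, sign counts and medians were added after seeing the data, the first because the table had no length column. Python 3.11.15, numpy 2.4.6 and pandas 2.3.3 did the rest. Some items are not reported here.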

Additional observations from a re-analysis of the deposited data

How the results depend on the processing

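With no library left out, no alternative called a member with HOTAIR in MCF10A or in the interaction, and in DCIS.COM the GC correction alone called 1, SAMD9L (adjusted p = 0.0478 by limma). Leaving out a library gave 0 to 1 members called lower in MCF10A, 0 to 9 called higher in DCIS.COM and 0 to 21 in the interaction. It gave 8 to 30 members lower at an unadjusted p under 0.05 in MCF10A and 7 to 19 higher in DCIS.COM, where separate fits gave 8. The lone library of a group was then assumed to vary like the other groups. The shares over all genes also changed in these fits, as given above for the DCIS.COM controls. The ranges are therefore not read as particular to the members. The median in DCIS.COM was 0.0712 under quantile normalization. At a log2 fold change of at least 1.5, 18 members were called lower in DCIS.COM with the empty vector, and 14 lower and 3 higher with HOTAIR, and with no fold threshold 8 were higher with HOTAIR. The shares of all genes at these thresholds are not given here. All other counts stayed within 1.5 times. No member called between the lines changed direction when a library was left out, but differences near 0 did, in 5 members with HOTAIR in MCF10A, 15 in DCIS.COM, 10 in the interaction and 2 in each comparison of the lines. The median over all genes moved by less than 0.1 log2 units in every setting. The replicate block left the counts at 23 and 13 members at an unadjusted p under 0.05 and at 29 and 4, and 25 and 5, between the lines. Libraries with the same replicate number did not deviate together (Pearson's r of -0.029 to 0.0359 over genes). Whether libraries of the same number were handled together is not given in the labels, and these correlations cannot decide it. Depth limits IFI27, IFI44L and EPSTI1 in DCIS.COM, where single libraries had 3 to 16 reads.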

Other observations

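TRIM22, an interferon-induced antiviral protein on neither list and named after its values were seen, was called with HOTAIR in DCIS.COM and in the difference between the lines. Its log2 fold change was 1.22 in DCIS.COM (adjusted p = 0.0024 by limma) and -0.15 in MCF10A, and the difference between the lines was 1.37 (adjusted p = 0.0208 by limma). The other genes called in DCIS.COM were HOTAIR, PDZK1IP1, NDRG1, COL17A1, GLUL, IGFBP6, MMP14, PROS1, SAA2, TCN1 and CLCA2, and those in MCF10A were HOTAIR, NDRG1 and CA9.

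A list of 13 genes induced mainly by interferon gamma had 9 in the table. With the empty vector 4 of the 9 were called lower in DCIS.COM and 2 higher, where 23.8% and 22.5% of all genes were. CD74, the invariant chain of MHC class II, was 5.37 log2 units higher in DCIS.COM with the empty vector, while CIITA, the activator of MHC class II genes, was at -3.61. GBP2, a guanylate-binding GTPase, was at -2.15 and HLA-DMA at 1.22, all 4 past the test. With HOTAIR, 6 of the 9 had a higher mean in MCF10A and 7 of the 9 in DCIS.COM, where 47.7% and 52.0% of all genes did. The medians over the 9 were 0.07 and 0.14.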
